A study of Mus musculus with 21 samples.

Results

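The comparison is between the lungs of mice given propylene glycol (PG) at 1100 and the lungs of mice given PG at 826, described across all genes. It rests on 6 of the 21 libraries of the study, 3 at each dose, grouped by their treatment labels. The comparison and the gene lists used below were chosen with earlier results of these data known. All animals were C57BL/6 mice, and every group was dosed by intratracheal instillation of 50 µL once daily for 14 days and killed on day 15. The PG 1100 group was animals 27, 28 and 30, the PG 826 group was animals 22, 23 and 25, and animals 6, 8 and 10 received saline, the control for PG. Values of 3 animals are given in that order. For context, 3 lungs given vitamin E acetate (VEA) at 12.5 and 3 given VEA at 3.12, in a part of the study that used 10% ethanol as its control, are set beside the PG lungs in places. Because the sample labels write these doses in mg/kg and the design text writes identical figures in mg/mL, no unit is attached to them here. Tissue was taken after bronchoalveolar lavage, so cells and fluid that lavage removes were not measured, and neither age nor sex is stated in the labels. Each library was made from 500 ng of total RNA with a kit that reads the 3′ ends of transcripts.

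Propylene glycol is a small, water-miscible diol used as a carrier in e-cigarette liquids and in drug formulations, and the body oxidises it by way of alcohol and aldehyde dehydrogenases. The alveolus where the instilled fluid ends up is lined by thin type I cells for gas exchange and by type II cells, which make surfactant and renew the epithelium. It is wrapped in capillary endothelium and patrolled by macrophages, and fibroblasts lay down its collagen and elastin. Repair after epithelial injury is known to draw on proliferating type II cells, on recruited macrophages that clear lipid and debris, and on fibroblasts that deposit new matrix.

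Total counts were 8778028 to 9749070 in PG 1100 libraries and 9195325 to 10912893 in PG 826 libraries, and 15598 to 15918 gene symbols had a count in the 6 libraries. In these libraries 16.4% to 20.8% of counts fell on ribosomal Rn45s and 4.54% to 9.06% on haemoglobin genes. All 8 lung markers (Sftpc, Sftpb, Ager, Scgb1a1, Foxj1, Cldn5, Pecam1 and Marco) were detected in both groups. Heart muscle markers summed to 137 to 203 CPM (counts scaled to library size) in PG 1100 lungs and 156 to 226 CPM in PG 826 lungs. Red cell markers summed to 33800 to 41300 CPM in PG 1100 lungs and 39200 to 66800 CPM in PG 826 lungs, and neutrophil markers to 180.0 to 285 CPM in PG 1100 lungs and 221 to 423 CPM in PG 826 lungs. Of the lung markers Sftpc was called higher and Scgb1a1 and Cldn5 lower, and no heart, red cell, neutrophil, fat, mesothelial, B cell, T cell or thymus marker was called by edgeR between the doses. Ucp1 and Rag1 had no count in PG 1100 lungs. In whole tissue, fewer cells of a type and less RNA per cell cannot be told apart. The labels do not say that animals of a group were housed or dosed apart, so p-values measure the spread between these animals.

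PG 1100 differed from PG 826 in 818 genes, which is 5.55% of the 14727 tested, with 419 higher (2.85%) and 399 lower (2.71%). A gene is called where the quasi-likelihood test of edgeR gives a Benjamini-Hochberg adjusted p below 0.05 over all genes. The median log2 fold change over all genes was 0.0077, and over the called genes the median size was 0.807. The 2 groups of 3 did not overlap in level for 740 of the called genes, against 20.4% of all genes tested. Genes named below by fold or smallest p were taken only from genes without overlap. For them the lack of overlap was a condition of naming and no further result. Members of the matrix, macrophage, lysosome, surfactant and cell division lists were among the higher genes, and members of the vascular endothelial and foreign-compound metabolism lists among the lower. Saline cancels out of this comparison, which equals the difference between the changes of the 2 doses from saline.

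**Figure D1:**
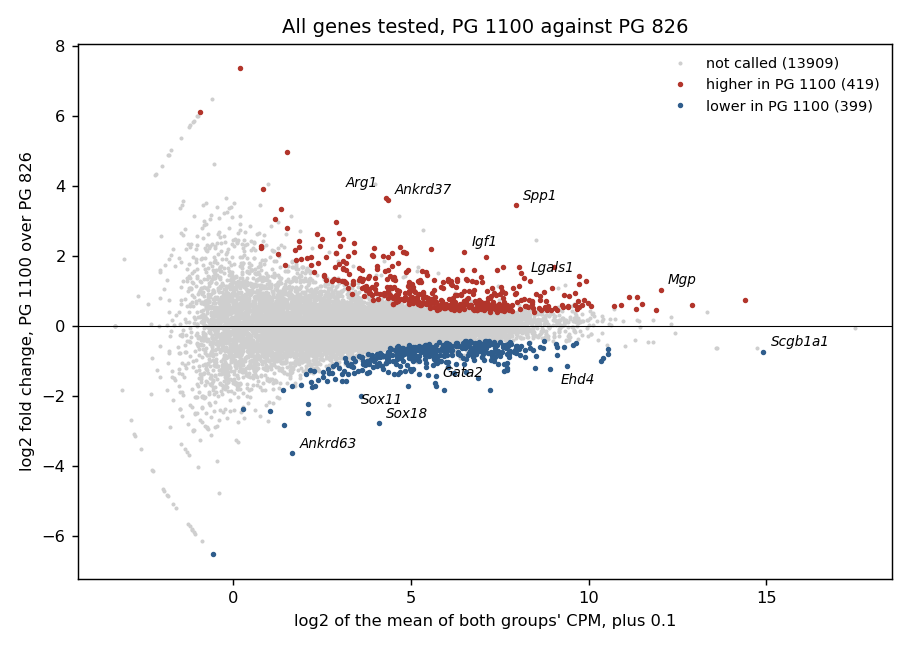
Log2 fold change of PG 1100 over PG 826 (vertical axis) against the log2 mean level of both groups in CPM (horizontal axis), 1 point per gene tested. The 419 genes called higher (red) include Igf1, Spp1 and Arg1, and the 399 called lower (blue) include Gata2, Sox11 and Ankrd63.

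The PG 1100 animals were not alike. Animal 28 had the highest level of the 3 for 311 of the 419 higher genes (74.2%) and the lowest for 292 of the 399 lower genes (73.2%), where over all genes tested it was highest in 32.7% and lowest in 34.1%. Animal 27 was highest for 12.4% of the higher genes and animal 30 for 13.4%. Without animal 28 the count was 259, with 127 higher and 132 lower, without PG 826 animal 25 it was 342, and without PG 1100 animal 27 it was 1458. With only the 6 libraries of these 2 groups in the model, 425 genes were called. In all, 208 genes (1.41% of those tested), 100 higher (0.679%) and 108 lower (0.733%), were called in every one of 13 other settings, which changed the scaling, the tool, the filter or the libraries, and the fold changes of called genes below are given with the number of those settings that called them.

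The gene with the smallest p was Igf1, insulin-like growth factor 1, a secreted mitogen made in lung by fibroblasts and macrophages (chr10:87858265-87937042, plus strand, GRCm38). Its level was 146, 163 and 131 CPM in PG 1100 lungs, against 38.6, 28.7 and 33.5 CPM in PG 826 lungs. Igf1 rose by 2.13 ± 0.15 on the log2 scale (edgeR adjusted p = 4.12e-12), called under all 13 alternatives, and did not overlap between the groups. The saline lungs were at 29.0 to 41.4 CPM, which overlaps the PG 826 lungs. In the list of the insulin-like growth factor axis 2 of 18 tested were higher, Igf1 included, and 2 lower. Each is 11.1% of the list, against 2.85% of all genes called higher and 2.71% called lower. Igfbp6 (-1.02 ± 0.17, edgeR adjusted p = 2.11e-04, called under all 13 alternatives), a binding protein, and Igf1r (-0.76 ± 0.18, edgeR adjusted p = 0.00689, called under 11 of 13 alternatives, and not without animal 28), the receptor, were lower, and Igfbp7 (0.46 ± 0.14, edgeR adjusted p = 0.0355, called under 7 of 13 alternatives, and not without animal 22 or 23 or 25 or 28), a binding protein secreted by vessels, was higher. Igfbp6 had 44.3, 35.4 and 49.9 CPM in PG 1100 lungs, against 91.8, 87.3 and 83.3 CPM in PG 826 lungs, and its groups did not overlap.

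Lgals1, a secreted galectin that binds cell surface glycans, had 381, 526 and 347 CPM in PG 1100 lungs, against 176, 167 and 138 CPM in PG 826 lungs. Lgals1 did not overlap between the groups, was highest in animal 28 of the PG 1100 lungs, and differed by 1.38 ± 0.16 on the log2 scale (edgeR adjusted p = 9.20e-07), called under all 13 alternatives.

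**Figure D2:**
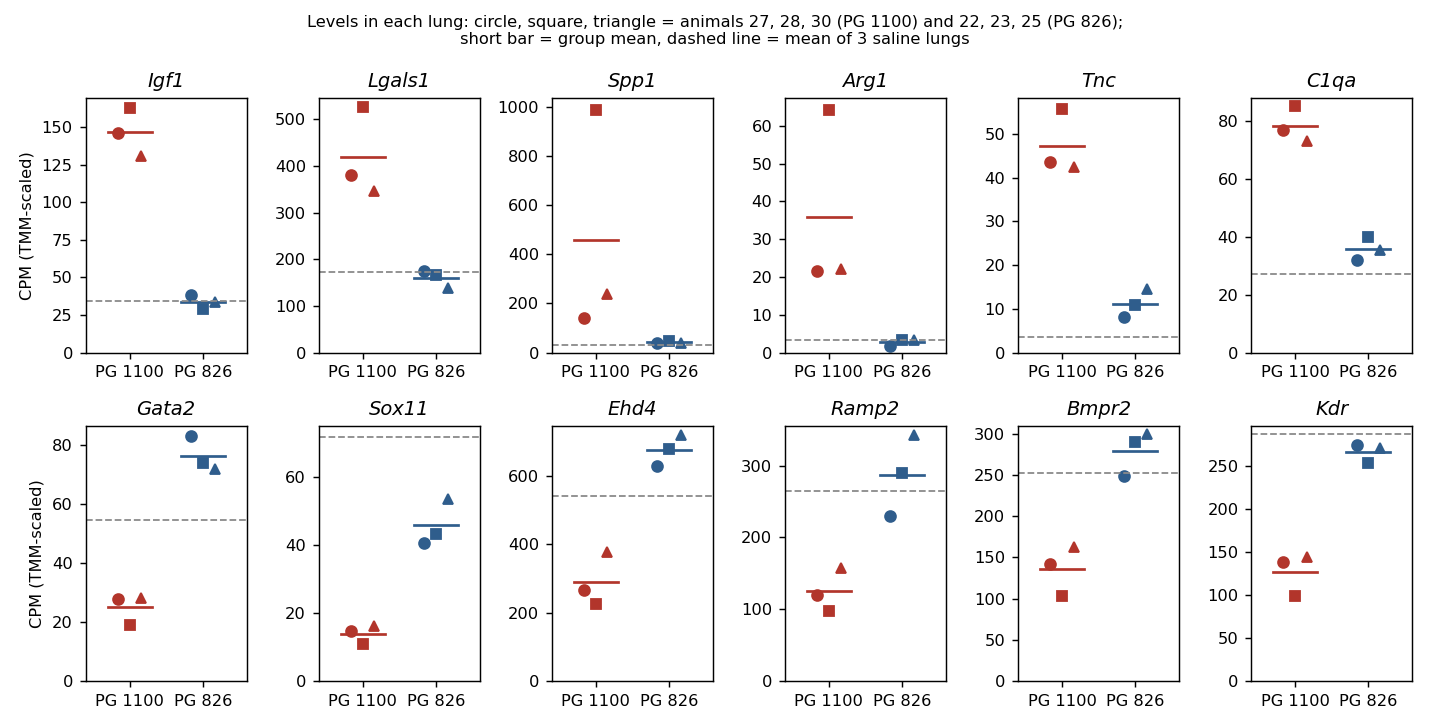
Level in CPM of 12 genes in each lung, with PG 1100 on the left and PG 826 on the right of each panel, the group mean as a short bar and the mean of the 3 saline lungs as a dashed line. Igf1, Lgals1, Spp1, Arg1, Tnc and C1qa were higher in all 3 PG 1100 lungs than in any PG 826 lung, and Gata2, Sox11, Ehd4, Ramp2, Bmpr2 and Kdr were lower.

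Extracellular matrix genes were higher at the upper dose. Of the tested members of the provisional and matricellular matrix, the glycoproteins of wound matrix, 12 of 22 were called higher (median log2 fold change 0.83, against 0.0077 for all genes), as were 8 of 23 collagens (median 0.55), 7 of 29 genes of elastic fibres and crosslinking (median 0.26) and 6 of 17 matrix metalloproteinases and their inhibitors (median 0.43). No member of these 4 lists was called lower. Over all genes, 2.85% were called higher. Tnc, the matrix glycoprotein tenascin C (chr4:63959785-64047015, minus strand), had 43.6, 55.6 and 42.3 CPM in PG 1100 lungs, against 8.11, 10.9 and 14.5 CPM in PG 826 lungs. Tnc did not overlap between the groups, was highest in animal 28 of the PG 1100 lungs, and differed by 2.08 ± 0.36 on the log2 scale (edgeR adjusted p = 6.90e-04), called under all 13 alternatives. Fn1, fibronectin, had 183, 232 and 123 CPM in PG 1100 lungs, against 64.1, 68.4 and 89.8 CPM in PG 826 lungs. Fn1 did not overlap between the groups, was highest in animal 28 of the PG 1100 lungs, and differed by 1.28 ± 0.20 on the log2 scale (edgeR adjusted p = 1.31e-04), called under all 13 alternatives. Vcan, the proteoglycan versican, was at 10.7, 18.3 and 23.2 CPM in PG 1100 lungs, against 5.26, 5.31 and 5.83 CPM in PG 826 lungs. Vcan rose by 1.67 ± 0.32 on the log2 scale (edgeR adjusted p = 8.49e-04), called under all 13 alternatives, and did not overlap between the groups. Spp1, osteopontin, a secreted adhesion protein of macrophages and injured epithelium (chr5:104435118-104441050, plus strand), had 143, 987 and 239 CPM in PG 1100 lungs, against 39.7, 45.5 and 40.1 CPM in PG 826 lungs. All 3 PG 1100 lungs stood above the PG 826 lungs, and animal 28 was several fold above the other two. Spp1 rose by 3.45 ± 0.57 on the log2 scale (edgeR adjusted p = 0.00219), called under 11 of 13 alternatives, and did not overlap between the groups.

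Among fibrillar collagens, Col3a1 had 736, 707 and 595 CPM in PG 1100 lungs, against 341, 271 and 343 CPM in PG 826 lungs. Col3a1 did not overlap between the groups, was highest in animal 27 of the PG 1100 lungs, and differed by 1.09 ± 0.16 on the log2 scale (edgeR adjusted p = 1.86e-05), called under all 13 alternatives. Col1a1 had 415, 279 and 267 CPM in PG 1100 lungs, against 147, 139 and 168 CPM in PG 826 lungs, and 7 of the 8 collagens called were highest in animal 27. Col1a1 rose by 1.08 ± 0.20 on the log2 scale (edgeR adjusted p = 8.53e-04), called under all 13 alternatives, and did not overlap between the groups. Also higher were Col5a2 (1.13 ± 0.18, called under all 13 alternatives) and Col6a3 (0.89 ± 0.19, called under all 13 alternatives), which encode chains of collagen V and VI. Eln, elastin, the core of elastic fibres (chr5:134702593-134747323, minus strand), had 1069, 716 and 597 CPM in PG 1100 lungs, against 263, 203 and 264 CPM in PG 826 lungs. Eln rose by 1.71 ± 0.23 on the log2 scale (edgeR adjusted p = 5.91e-05), called under all 13 alternatives, and did not overlap between the groups. The saline lungs were at 139 to 253 CPM for Eln. Mfap5 (0.92 ± 0.16, called under all 13 alternatives) and Fbn1 (0.81 ± 0.20, called under 11 of 13 alternatives, and not without animal 22), both microfibril proteins, and Loxl2 (1.01 ± 0.21, called under all 13 alternatives), a lysyl oxidase that crosslinks collagen and elastin, were higher too. Mmp12, the macrophage elastase, had 40.001, 21.7 and 14.0 CPM in PG 1100 lungs, against 2.96, 6.35 and 6.77 CPM in PG 826 lungs. Mmp12 rose by 2.23 ± 0.41 on the log2 scale (edgeR adjusted p = 0.00281), called under all 13 alternatives, and did not overlap between the groups. Mmp19 (1.54 ± 0.24, edgeR adjusted p = 6.92e-05, called under all 13 alternatives), a broad metalloproteinase, was at 36.0, 92.7 and 62.9 CPM in PG 1100 lungs, against 21.1, 22.4 and 22.0 CPM in PG 826 lungs. Timp1, an inhibitor of metalloproteinases, was at 35.4, 55.0 and 42.5 CPM in PG 1100 lungs, against 7.89, 19.4 and 2.92 CPM in PG 826 lungs. Timp1 rose by 2.12 ± 0.51 on the log2 scale (edgeR adjusted p = 0.0232), called under 9 of 13 alternatives, and not without animal 22 or 28, and did not overlap between the groups. Mmp2 (0.73 ± 0.21, edgeR adjusted p = 0.0319, called under 8 of 13 alternatives, and not without animal 23 or 25 or 27 or 28), gelatinase A, was higher as well. Without animal 28, 5 members of the provisional matrix list, 7 collagens, 4 elastic fibre genes and 3 metalloproteinase genes were called higher, and without animal 25 the counts were 4, 7, 4 and 3. Without animal 22 they were 5, 6, 4 and 3, and the provisional matrix count was 7 without animal 23 and 7 without animal 30.

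Genes of TGF-beta, BMP and activin signalling moved in both directions, with 4 higher and 8 lower of 25 tested. These are 16.0% and 32.0% of the list, against 2.85% and 2.71% of all genes. Among the lower ones were receptors of BMP signals and the BMP targets Id1 and Id3, both called lower under all 13 alternatives. Id2, of the same gene family, was among the higher, but not under all 13. Bmpr2, the type II BMP receptor (chr1:59763400-59879014, plus strand), had 142, 103 and 163 CPM in PG 1100 lungs, against 249, 291 and 299.6 CPM in PG 826 lungs. Bmpr2 fell by 1.04 ± 0.14 on the log2 scale (edgeR adjusted p = 1.41e-05), called under all 13 alternatives, and did not overlap between the groups. Acvrl1, a type I receptor of endothelial BMP signals, had 124, 71.0 and 114 CPM in PG 1100 lungs, against 179, 198 and 230.0 CPM in PG 826 lungs. Acvrl1 fell by 0.98 ± 0.16 on the log2 scale (edgeR adjusted p = 1.12e-04), called under all 13 alternatives, and did not overlap between the groups. Eng, the co-receptor endoglin, had 47.1, 29.1 and 48.0 CPM in PG 1100 lungs, against 85.2, 103 and 127 CPM in PG 826 lungs. Eng fell by 1.35 ± 0.21 on the log2 scale (edgeR adjusted p = 1.55e-04), called under all 13 alternatives, and did not overlap between the groups. Smad6, the inhibitory SMAD that BMP signals induce, had 30.05, 15.6 and 27.9 CPM in PG 1100 lungs, against 51.9, 90.03 and 96.4 CPM in PG 826 lungs. Smad6 fell by 1.69 ± 0.29 on the log2 scale (edgeR adjusted p = 0.00126), called under all 13 alternatives, and did not overlap between the groups. Tgfbr3 (-1.35 ± 0.21, edgeR adjusted p = 8.64e-05, called under all 13 alternatives), betaglycan, was also lower. The count of 8 lower members was 7 without animal 28, and the count of 4 higher members was 1 or 2 when any one of animals 22, 23, 25, 27 and 28 was left out.

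Of 13 smooth muscle and myofibroblast genes tested, 3 were called higher (23.1%, against 2.85% of all genes). Acta2, smooth muscle actin, had 521, 379 and 492 CPM in PG 1100 lungs, against 152, 236 and 184 CPM in PG 826 lungs. Acta2 rose by 1.28 ± 0.27 on the log2 scale (edgeR adjusted p = 0.00714), called under all 13 alternatives, and did not overlap between the groups. Myl9 (0.82 ± 0.21, called under 11 of 13 alternatives, and not without animal 22 or 28), a myosin light chain, and Tagln (1.02 ± 0.27, called under 7 of 13 alternatives, and not without animal 22 or 23 or 25 or 27 or 28 or 30), the actin-binding transgelin, were the others, and without animal 28 the count was 1. In the pericyte list 1 of 12 members (8.33%), Higd1b (0.77 ± 0.17, edgeR adjusted p = 0.00390, called under 12 of 13 alternatives, and not without animal 28), was higher. In the list of alveolar fibroblast identity 1 of 16 was lower (6.25%, against 2.71% of all genes) and 1 higher (6.25%). The lower one was Inmt, an N-methyltransferase abundant in lung fibroblasts, with 736, 810.0 and 1069 CPM in PG 1100 lungs, against 1533, 1649 and 2054 CPM in PG 826 lungs. Inmt fell by 1.0 ± 0.14 on the log2 scale (edgeR adjusted p = 2.07e-05), called under all 13 alternatives, and did not overlap between the groups. The higher one was Plin2 (0.63 ± 0.15, edgeR adjusted p = 0.00895, called under 9 of 13 alternatives, and not without animal 25 or 28), a lipid droplet coat protein that macrophages also make.

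**Figure D3:**
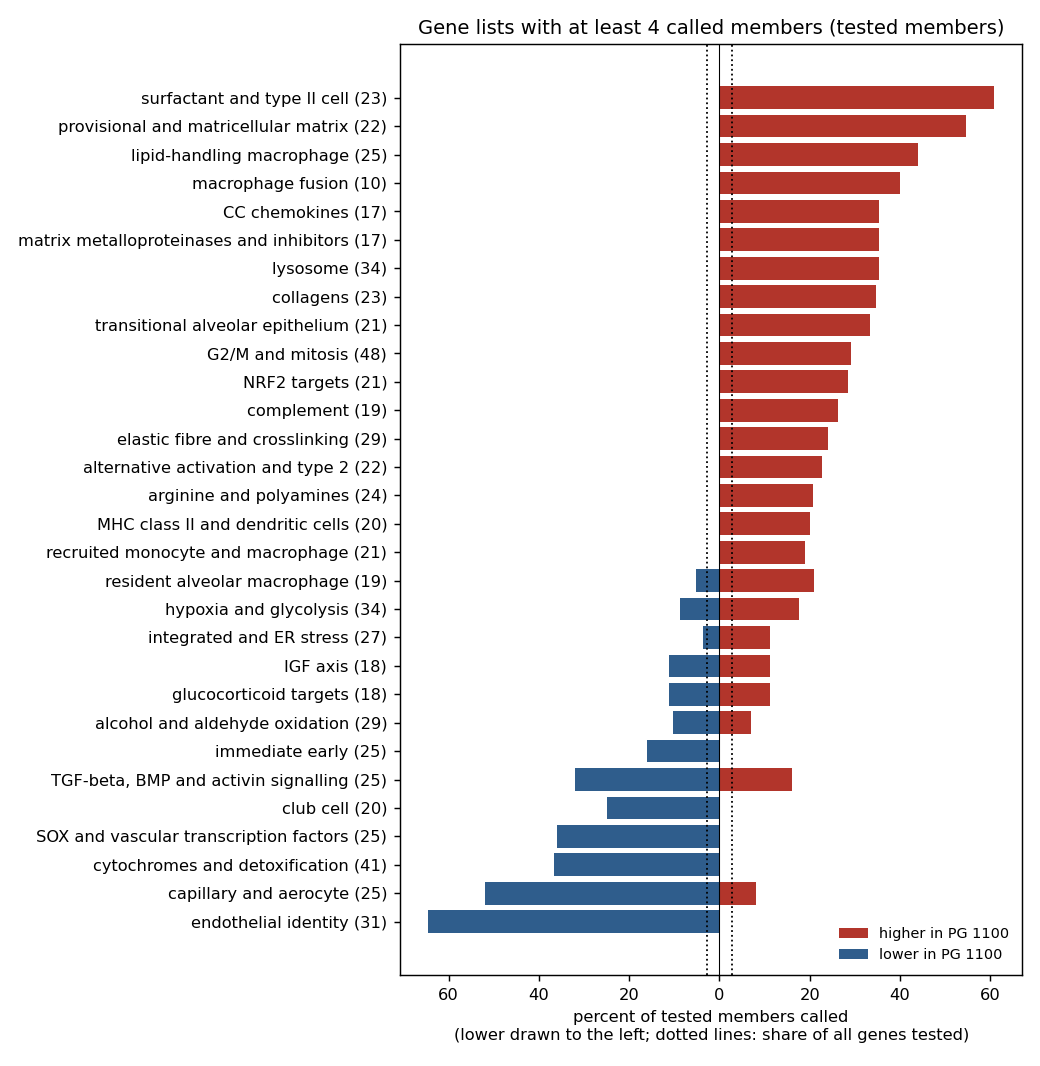
Percent of the tested members of each gene list that were called higher in PG 1100 (red, to the right) or lower (blue, to the left), for lists of 10 or more tested members with at least 4 called, with the number tested in brackets. The dotted lines mark the 2.85% of all genes called higher and the 2.71% called lower.

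Macrophage genes were higher at the upper dose. Of the lipid-handling macrophage genes 11 of 25 were called higher (median 0.63), of the lysosome genes 12 of 34 (median 0.40), of the genes of alternative activation and type 2 responses 5 of 22, of the macrophage fusion genes 4 of 10 and of the markers of recruited monocytes and macrophages 4 of 21. No member of these lists was lower, and over all genes 2.85% were called higher. Arg1, arginase 1, which turns arginine into ornithine in alternatively activated macrophages (chr10:24915221-24927484, minus strand), had 21.6, 64.2 and 22.0 CPM in PG 1100 lungs, against 1.75, 3.39 and 3.23 CPM in PG 826 lungs. The lowest PG 1100 value was several fold above the highest PG 826 value. Arg1 rose by 3.67 ± 0.61 on the log2 scale (edgeR adjusted p = 0.00100), called under 12 of 13 alternatives, and did not overlap between the groups. Trem2, a lipid-sensing receptor of macrophages, had 11.6, 32.4 and 8.68 CPM in PG 1100 lungs, against 4.38, 4.0 and 1.77 CPM in PG 826 lungs. Trem2 rose by 2.37 ± 0.53 on the log2 scale (edgeR adjusted p = 0.00792), called under 11 of 13 alternatives, and not without animal 25 or 28, and did not overlap between the groups. Cd63, a tetraspanin of late endosomes, had 826, 1195 and 1063 CPM in PG 1100 lungs, against 519, 560.4 and 511 CPM in PG 826 lungs. Cd63 rose by 0.95 ± 0.14 on the log2 scale (edgeR adjusted p = 3.54e-05), called under all 13 alternatives, and did not overlap between the groups. Lgals3, a galectin of macrophages and injured epithelium, had 401, 653 and 477 CPM in PG 1100 lungs, against 305, 289.7 and 241 CPM in PG 826 lungs. Lgals3 rose by 0.87 ± 0.15 on the log2 scale (edgeR adjusted p = 2.34e-04), called under all 13 alternatives, and did not overlap between the groups. Cd68 (1.28 ± 0.22, called under 12 of 13 alternatives), a lysosomal glycoprotein of macrophages, and Npc2 (0.65 ± 0.14, called under 9 of 13 alternatives, and not without animal 25 or 28), which carries cholesterol out of lysosomes, were higher too.

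Complement C1q, which macrophages of tissue make as 3 chains from neighbouring genes, was higher in each chain. C1qa had 76.8, 85.2 and 73.3 CPM in PG 1100 lungs, against 32.0, 39.9 and 35.6 CPM in PG 826 lungs. C1qa rose by 1.13 ± 0.16 on the log2 scale (edgeR adjusted p = 2.47e-05), called under all 13 alternatives, and did not overlap between the groups. C1qb had 58.0, 132 and 90.7 CPM in PG 1100 lungs, against 33.2, 48.1 and 29.5 CPM in PG 826 lungs, and C1qc had 66.5, 108 and 69.9 CPM in PG 1100 lungs, against 31.3, 50.02 and 32.3 CPM in PG 826 lungs. Neither overlapped between the groups. C1qb (1.34 ± 0.24, edgeR adjusted p = 0.00139, called under all 13 alternatives) and C1qc (1.10 ± 0.19, edgeR adjusted p = 4.29e-04, called under all 13 alternatives) gave similar sizes. Fcgr2b (1.08 ± 0.27, edgeR adjusted p = 0.0105, called under 9 of 13 alternatives, and not without animal 23 or 28), the inhibitory receptor for IgG, was the other called member of the recruited list. The rest of its called members were the C1q chains, so these calls do not tell recruited from resident macrophages. For macrophages that live in the alveolus, 4 of 19 tested genes were higher and 1, the keratin Krt79 (-1.14 ± 0.25, edgeR adjusted p = 0.00383, called under 12 of 13 alternatives, and not without animal 28), was lower. These are 21.05% and 5.26% of the list, against 2.85% and 2.71% of all genes. F7 (1.14 ± 0.25, edgeR adjusted p = 0.00425, called under 11 of 13 alternatives, and not without animal 28), coagulation factor VII, and Bhlhe41 (1.16 ± 0.32, edgeR adjusted p = 0.0252, called under 7 of 13 alternatives, and not without animal 22 or 25 or 28), a repressor active in alveolar macrophages, were among the higher ones. Mrc1, the mannose receptor, was at 93.5, 136 and 94.9 CPM in PG 1100 lungs, against 78.7, 76.5 and 58.8 CPM in PG 826 lungs. Mrc1 rose by 0.60 ± 0.16 on the log2 scale (edgeR adjusted p = 0.0175), called under 9 of 13 alternatives, and not without animal 25 or 28, and did not overlap between the groups. The 4 higher genes of alveolar macrophages were 0 without animal 28, 1 without animal 22, 1 without animal 25 and 2 without animal 23.

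Of the 12 lysosome genes called, the 4 with the smallest p were cathepsins, and Ctsb, Ctsc, Ctsd and Ctss were each highest in animal 28. Ctsb, cathepsin B, had 247, 557 and 284 CPM in PG 1100 lungs, against 185, 160.2 and 148 CPM in PG 826 lungs. Ctsb rose by 1.14 ± 0.19 on the log2 scale (edgeR adjusted p = 3.32e-04), called under all 13 alternatives, and did not overlap between the groups. Ctsd, cathepsin D, had 923, 1913 and 750.1 CPM in PG 1100 lungs, against 547, 514 and 492 CPM in PG 826 lungs. Ctsd rose by 1.21 ± 0.21 on the log2 scale (edgeR adjusted p = 6.91e-04), called under 12 of 13 alternatives, and did not overlap between the groups. Ctss, the cathepsin of antigen-presenting cells, had 905, 1992 and 830.4 CPM in PG 1100 lungs, against 556, 446 and 385 CPM in PG 826 lungs. Ctss rose by 1.43 ± 0.27 on the log2 scale (edgeR adjusted p = 0.00306), called under 12 of 13 alternatives, and did not overlap between the groups. Ctsc, which activates granule proteases, was also higher (0.96 ± 0.17, called under all 13 alternatives). Of the fusion list, Ctsk (1.29 ± 0.35, called under 6 of 13 alternatives, and not without animal 22 or 23 or 25 or 28), Acp5 (0.95 ± 0.28, called under 7 of 13 alternatives, and not without animal 23 or 25 or 28), Atp6v0d2 (0.72 ± 0.21, called under 6 of 13 alternatives, and not without animal 22 or 23 or 25 or 28) and Cd200r4 (1.37 ± 0.38, called under 7 of 13 alternatives, and not without animal 22 or 25 or 28), genes that osteoclasts or fusing macrophages use, each rose, and none was called with only the 6 libraries in the model. Each of these fusion genes overlapped between the groups and was highest in animal 28. Without animal 28, 3 lipid-handling, 4 lysosomal, 3 alternative activation, 0 fusion and 3 recruited macrophage genes were called, and without animal 25 the counts were 4, 6, 3, 0 and 4. Without animal 27, 8 alternative activation and 7 recruited macrophage genes were called. The fusion count was 1 without animal 22 and 1 without animal 23.

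Lysosomal genes are known to share the CLEAR element bound by the factor TFEB, and 3 promoters are shown to set those letters beside called members, while 22 of the 34 genes tested were not called. The letters CACGTGAC (or GTCACGTG on the other strand) were searched in windows of 250 bases before to 50 bases after each gene start in the RefSeq table for GRCm38.p6. They were present in 8 of the 24 lysosome genes with a window there (33.3%), in 3 of the 8 called higher and in 5 of the 16 not called, against 2.55% of 27025 genes in the table and 4.46% of the tested genes with a window. For the 3 called members with the motif, the 250 bases before the start are given 5′ to 3′, with the motif in capitals. The match is a description of the letters and no site of binding.
Ctsd promoter (chr7:142387828-142388077, minus strand): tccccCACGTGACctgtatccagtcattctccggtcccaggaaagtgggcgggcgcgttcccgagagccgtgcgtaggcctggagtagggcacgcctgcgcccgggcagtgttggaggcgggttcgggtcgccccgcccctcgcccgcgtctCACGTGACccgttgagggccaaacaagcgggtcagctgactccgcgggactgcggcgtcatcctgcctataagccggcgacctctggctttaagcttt
Gla promoter (chrX:134601006-134601255, minus strand): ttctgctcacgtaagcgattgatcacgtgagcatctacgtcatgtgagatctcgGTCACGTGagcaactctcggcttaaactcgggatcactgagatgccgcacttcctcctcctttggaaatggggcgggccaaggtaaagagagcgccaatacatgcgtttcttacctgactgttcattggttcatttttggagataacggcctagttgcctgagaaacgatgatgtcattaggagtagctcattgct
Lgmn promoter (chr12:102439093-102439342, minus strand): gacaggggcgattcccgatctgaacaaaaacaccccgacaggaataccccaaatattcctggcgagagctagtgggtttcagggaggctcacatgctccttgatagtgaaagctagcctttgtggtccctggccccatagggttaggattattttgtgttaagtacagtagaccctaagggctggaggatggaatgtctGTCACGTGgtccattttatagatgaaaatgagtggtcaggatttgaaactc

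CC chemokines, which draw leukocytes into tissue, were higher in 6 of 17 tested members (35.3%, against 2.85% of all genes, median 0.75). All 17 had a log2 fold change above 0. Ccl21a, the ligand that guides CCR7-bearing cells along lymphatic vessels, had 114, 166 and 125 CPM in PG 1100 lungs, against 51.5, 53.2 and 55.8 CPM in PG 826 lungs. Ccl21a rose by 1.34 ± 0.16 on the log2 scale (edgeR adjusted p = 9.20e-07), called under all 13 alternatives, and did not overlap between the groups. Ccl21a has near-identical copies, Ccl21b, Ccl21c and Gm1987, so its reads cannot be assigned with certainty. Ccl6, a macrophage chemokine, had 1297, 1832 and 1022 CPM in PG 1100 lungs, against 594, 598 and 508 CPM in PG 826 lungs. Ccl6 rose by 1.29 ± 0.18 on the log2 scale (edgeR adjusted p = 3.09e-05), called under all 13 alternatives, and did not overlap between the groups. Ccl8, a ligand of type 2 inflammation, had 38.3, 33.4 and 34.0 CPM in PG 1100 lungs, against 14.7, 5.31 and 5.21 CPM in PG 826 lungs. Ccl8 rose by 2.08 ± 0.43 on the log2 scale (edgeR adjusted p = 0.00617), called under all 13 alternatives, and did not overlap between the groups. Ccl17 (1.08 ± 0.22, called under all 13 alternatives), a ligand of CCR4, and Ccl9 (1.12 ± 0.24, called under all 13 alternatives), a macrophage chemokine, were higher as well. The count was 5 without animal 28.

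The complement list had 5 of 19 called higher (26.3%, against 2.85% of all genes). They were the 3 C1q chains, Hc (0.98 ± 0.16, edgeR adjusted p = 1.31e-04, called under all 13 alternatives), which encodes C5, and C3ar1 (1.65 ± 0.31, edgeR adjusted p = 7.62e-04, called under all 13 alternatives), the receptor of the C3a fragment. All 5 were called under every alternative. Of MHC class II and dendritic cell genes 4 of 20 were higher, among them H2-Aa, a class II chain, with 962, 1387 and 1144 CPM in PG 1100 lungs, against 735, 591 and 766 CPM in PG 826 lungs. H2-Aa rose by 0.74 ± 0.15 on the log2 scale (edgeR adjusted p = 0.00132), called under all 13 alternatives, and did not overlap between the groups. H2-DMb1 (0.70 ± 0.15, called under all 13 alternatives), a peptide loading chain, Mgl2 (0.71 ± 0.17, called under all 13 alternatives), a lectin of dendritic cells, and H2-Eb1 (0.63 ± 0.15, called under 9 of 13 alternatives, and not without animal 22 or 23), a class II chain, completed them. In the acute phase and cytokine list 2 of 21 were higher (9.52%). Tnfrsf9 (1.80 ± 0.33, edgeR adjusted p = 5.24e-04, called under all 13 alternatives), the co-stimulatory receptor 4-1BB, had 6.57, 9.08 and 8.35 CPM in PG 1100 lungs, against 1.21, 2.87 and 2.71 CPM in PG 826 lungs. The other was Lbp (0.62 ± 0.18, edgeR adjusted p = 0.0321, called under 7 of 13 alternatives, and not without animal 22 or 25 or 28 or 30), which presents lipopolysaccharide. Interferon-stimulated genes had 2 of 26 higher (7.69%), Cxcl9 (3.91 ± 0.84, edgeR adjusted p = 0.00364, called under 10 of 12 alternatives, and not without animal 28) and Ifi27 (0.48 ± 0.15, edgeR adjusted p = 0.0452, called under 6 of 13 alternatives, and not without animal 23 or 25 or 28 or 30), with list averages of 0.33, 1.10 and 0.34 log2 units in PG 1100 animals and 0.05, -0.10 and 0.05 in PG 826 animals, relative to the PG 826 mean.

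Calls in the lymphoid and neutrophil lists stand beside the 2.85% of all genes called higher and the 2.71% called lower. In the neutrophil and CXC chemokine list 2 of 16 were higher (12.5%) and 1 lower (6.25%). Lcn2 (1.69 ± 0.43, edgeR adjusted p = 0.0320, called under 7 of 13 alternatives, and not without animal 22 or 25 or 28 or 30), the iron-sequestering lipocalin that epithelium also secretes, was at 189, 635 and 369 CPM in PG 1100 lungs, against 79.8, 218 and 72.4 CPM in PG 826 lungs, and its groups overlapped. Cxcl15 (0.46 ± 0.14, edgeR adjusted p = 0.0390, called under 6 of 13 alternatives, and not without animal 22 or 23 or 25 or 28 or 30), a chemokine of lung epithelium, was higher, and G0s2 (-0.62 ± 0.16, edgeR adjusted p = 0.0115, called under 11 of 13 alternatives, and not without animal 25 or 28), an inhibitor of lipolysis, was lower. In the T and NK cell list 1 of 26 was lower (3.85%), Gata3 (-1.34 ± 0.34, edgeR adjusted p = 0.0134, called under 8 of 13 alternatives, and not without animal 23 or 25 or 28). In the B and plasma cell list 1 of 17 was higher (5.88%), Sdc1 (0.5 ± 0.13, edgeR adjusted p = 0.0160, called under 8 of 13 alternatives, and not without animal 22 or 25 or 28), which epithelium also makes.

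Mitotic genes were higher in the PG 1100 lungs, most of all in animal 28. Of 48 genes of G2/M and mitosis tested 14 were called higher (29.2%, against 2.85% of all genes) and 0 lower, 45 had a log2 fold change above 0, and the median was 1.41. The list averaged 0.94, 2.17 and 0.77 log2 units in the PG 1100 animals and 0.74, -0.26 and -0.48 in the PG 826 animals, relative to the PG 826 mean, so animal 22 of the PG 826 group lay close to animal 30. Cdk1, the kinase that starts mitosis, had 27.4, 81.5 and 25.5 CPM in PG 1100 lungs, against 17.0, 7.92 and 5.94 CPM in PG 826 lungs. Cdk1 rose by 2.13 ± 0.46 on the log2 scale (edgeR adjusted p = 0.0107), called under 9 of 13 alternatives, and not without animal 23 or 25, and did not overlap between the groups. Ccnb1, its cyclin B1 partner, had 8.31, 24.6 and 6.79 CPM in PG 1100 lungs, against 3.73, 3.04 and 1.25 CPM in PG 826 lungs. Ccnb1 rose by 2.30 ± 0.45 on the log2 scale (edgeR adjusted p = 0.00100), called under 12 of 13 alternatives, and not without animal 28, and did not overlap between the groups. Kif11, the kinesin that separates the spindle poles, had 2.51, 13.0 and 2.34 CPM in PG 1100 lungs, against 1.42, 1.22 and 0.625 CPM in PG 826 lungs. Kif11 rose by 2.43 ± 0.53 on the log2 scale (edgeR adjusted p = 0.00340), called under 10 of 13 alternatives, and not without animal 28, and did not overlap between the groups. Tpx2, a spindle assembly factor, had 11.6, 24.4 and 8.46 CPM in PG 1100 lungs, against 5.37, 3.04 and 2.71 CPM in PG 826 lungs. Tpx2 rose by 2.0 ± 0.40 on the log2 scale (edgeR adjusted p = 0.00117), called under 12 of 13 alternatives, and not without animal 28, and did not overlap between the groups. Cep55 (2.98 ± 0.80, called under 8 of 13 alternatives, and not without animal 22 or 23 or 25 or 28) and Ect2 (2.19 ± 0.63, called under 7 of 13 alternatives, and not without animal 23 or 25 or 28), which act in cytokinesis, and Casc5 (2.82 ± 0.62, called under 11 of 13 alternatives, and not without animal 28), a kinetochore scaffold, rose as well. Mki67, Top2a and Cdk1, the markers of proliferating cells, summed to 90.3 to 287 CPM in PG 1100 lungs and 29.5 to 80.8 CPM in PG 826 lungs.

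The mitotic count rested on single animals. It was 1 without animal 28, 4 without animal 25, 5 without animal 23 and 5 with only the 6 libraries, and it was 23 without animal 22. None of the 48 genes was called under all 13 alternatives. Of the 31 genes of DNA replication and G1/S, 3 were higher, Tk1 (1.49 ± 0.41, called under 7 of 13 alternatives, and not without animal 23 or 25 or 28) and Tyms (1.29 ± 0.38, called under 7 of 13 alternatives, and not without animal 23 or 25 or 28), which supply thymidine nucleotides, and Mcm6 (0.90 ± 0.26, called under 8 of 13 alternatives, and not without animal 22 or 25 or 28 or 30), a subunit of the replicative helicase. Those 3 are 9.68% of the replication list, against 2.85% of all genes, and without animal 28 that count was 0.

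Promoters of mitotic genes are known to carry a cell cycle homology region (CHR), the letters TTTGAA (or TTCAAA), which the DREAM complex reads, often beside CCAAT boxes. In the same RefSeq windows the CHR letters were present in 28 of the 38 G2/M genes with a window (73.7%), in 11 of the 12 called higher and in 17 of the 26 not called, against 20.2% of all genes in the table and 14.6% of the tested genes. CCAAT (or ATTGG) was also present in 28 of the 38, against 41.1% of all genes. The 250 bases before the start of the called members Kif11, Cdk1 and Mki67 are given 5′ to 3′, with the CHR letters in capitals.
Kif11 promoter (chr19:37376132-37376381, plus strand): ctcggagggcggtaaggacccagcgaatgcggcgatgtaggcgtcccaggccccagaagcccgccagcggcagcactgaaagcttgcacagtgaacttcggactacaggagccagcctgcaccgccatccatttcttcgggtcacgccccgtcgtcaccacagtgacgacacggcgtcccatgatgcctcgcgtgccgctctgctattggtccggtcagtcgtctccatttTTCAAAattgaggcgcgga
Cdk1 promoter (chr10:69352913-69353162, minus strand): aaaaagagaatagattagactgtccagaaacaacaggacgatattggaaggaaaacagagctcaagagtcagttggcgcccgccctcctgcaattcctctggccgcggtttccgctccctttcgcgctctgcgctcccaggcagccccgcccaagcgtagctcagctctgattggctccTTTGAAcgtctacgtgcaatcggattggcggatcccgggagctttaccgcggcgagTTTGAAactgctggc
Mki67 promoter (chr7:135716380-135716629, minus strand): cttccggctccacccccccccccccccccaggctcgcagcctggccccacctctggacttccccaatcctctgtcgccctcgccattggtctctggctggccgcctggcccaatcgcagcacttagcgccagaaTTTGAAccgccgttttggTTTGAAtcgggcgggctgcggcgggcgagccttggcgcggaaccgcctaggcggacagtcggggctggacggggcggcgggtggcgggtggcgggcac

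Alveolar type II cell genes were higher, in 14 of 23 tested members (60.9%, against 2.85% of all genes, median 0.55), with none lower and 22 of 23 above 0. Sftpd, surfactant protein D, a collectin of innate defence (chr14:41172214-41185149, minus strand), had 2191, 3508 and 2949 CPM in PG 1100 lungs, against 1626, 1805 and 1400.4 CPM in PG 826 lungs. Sftpd rose by 0.84 ± 0.15 on the log2 scale (edgeR adjusted p = 5.00e-04), called under all 13 alternatives, and did not overlap between the groups. Napsa, an aspartic protease that processes surfactant protein B, had 596, 592 and 482 CPM in PG 1100 lungs, against 283, 373 and 359.5 CPM in PG 826 lungs. Napsa rose by 0.72 ± 0.14 on the log2 scale (edgeR adjusted p = 7.52e-04), called under all 13 alternatives, and did not overlap between the groups. Ctsh, cathepsin H, which acts in the same processing, had 719, 1018 and 744 CPM in PG 1100 lungs, against 496, 454 and 392 CPM in PG 826 lungs. Ctsh rose by 0.89 ± 0.14 on the log2 scale (edgeR adjusted p = 8.76e-05), called under all 13 alternatives, and did not overlap between the groups. Sftpc, the defining surfactant protein C, was at 19802, 33269.5 and 28166 CPM in PG 1100 lungs, against 16828, 16069.8 and 15584 CPM in PG 826 lungs (0.74 ± 0.16, edgeR adjusted p = 0.00311, called under 11 of 13 alternatives, and not without animal 28), while the saline lungs were at 15804 to 24473 CPM and overlapped both PG groups. Sizes were modest, and no member reached a log2 fold change of 1. The count was 4 without animal 28, 5 without animal 25, 9 without animal 22 and 6 with only the 6 libraries.

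Genes of the transitional state between type II and type I cells were higher in 7 of 21 (33.3%, against 2.85% of all genes, median 0.60). Clu, the secreted chaperone clusterin, had 268, 420.1 and 269 CPM in PG 1100 lungs, against 185, 168 and 152 CPM in PG 826 lungs. Clu rose by 0.92 ± 0.15 on the log2 scale (edgeR adjusted p = 1.12e-04), called under all 13 alternatives, and did not overlap between the groups. Krt18, a simple epithelial keratin, had 73.7, 146 and 118 CPM in PG 1100 lungs, against 79.2, 72.5 and 54.7 CPM in PG 826 lungs. Krt18 rose by 0.71 ± 0.18 on the log2 scale (edgeR adjusted p = 0.0137), called under 9 of 13 alternatives, and not without animal 25 or 28, and overlapped between the groups. Ctsh and Lgals3, given above, are also in this list, and the count was 3 without animal 28, 3 without animal 25 and 11 without animal 27. Of type I cell genes 3 of 20 were lower and none higher, Scnn1g (-0.91 ± 0.23, edgeR adjusted p = 0.0140, called under 11 of 13 alternatives, and not without animal 25 or 28), a sodium channel subunit, Rtkn2 (-0.57 ± 0.16, edgeR adjusted p = 0.0227, called under 7 of 13 alternatives, and not without animal 23 or 25 or 28 or 30) and Vegfa (-0.61 ± 0.17, edgeR adjusted p = 0.0232, called under 8 of 13 alternatives, and not without animal 23 or 25 or 28), the growth factor of endothelium. The type I count, 15.0% of the list against 2.71% of all genes called lower, was 0 without animal 28.

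In the airway, club cell genes were lower in 5 of 20 (25.0%, against 2.71% of all genes). Scgb1a1, the secretoglobin that club cells release, had 21296, 20729 and 27850.3 CPM in PG 1100 lungs, against 38989.9, 39827 and 36929.8 CPM in PG 826 lungs. Scgb1a1 fell by 0.73 ± 0.15 on the log2 scale (edgeR adjusted p = 0.00200), called under 12 of 13 alternatives, and did not overlap between the groups. The saline lungs were at 47441 to 62601 CPM, above both. Cyp2f2, the cytochrome of club cells, had 900.0, 550.4 and 1352 CPM in PG 1100 lungs, against 1628, 1801 and 1864 CPM in PG 826 lungs. Cyp2f2 fell by 0.92 ± 0.20 on the log2 scale (edgeR adjusted p = 0.00538), called under 12 of 13 alternatives, and did not overlap between the groups. Animal 30 was highest of the PG 1100 lungs in both, and the list averaged -0.48, -0.94 and 0.24 log2 units in the PG 1100 animals against 0.19, -0.05 and -0.14 in the PG 826 animals, with overlap. The count was 3 without animal 28 and 3 without animal 25. Gsta3 (-0.95 ± 0.18, called under all 13 alternatives), a glutathione transferase, was lower too. Of goblet and mucous genes 3 of 11 were higher (27.3%, against 2.85% of all genes). Agr2, the isomerase that folds mucins, had 18.2, 8.19 and 16.5 CPM in PG 1100 lungs, against 1.31, 3.39 and 2.81 CPM in PG 826 lungs. Agr2 rose by 2.5 ± 0.58 on the log2 scale (edgeR adjusted p = 0.00617), called under all 13 alternatives, and did not overlap between the groups. Slc26a4, the anion exchanger pendrin, had 9.95, 15.1 and 10.2 CPM in PG 1100 lungs, against 3.51, 2.44 and 2.29 CPM in PG 826 lungs. Slc26a4 rose by 2.10 ± 0.33 on the log2 scale (edgeR adjusted p = 1.06e-04), called under all 13 alternatives, and did not overlap between the groups. Reg3g (1.99 ± 0.50, edgeR adjusted p = 0.0297, called under 9 of 13 alternatives, and not without animal 23 or 25 or 30), an antibacterial lectin, was the other. None of 31 motile cilia genes was called by edgeR in either direction (median -0.20).

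**Figure D4:**
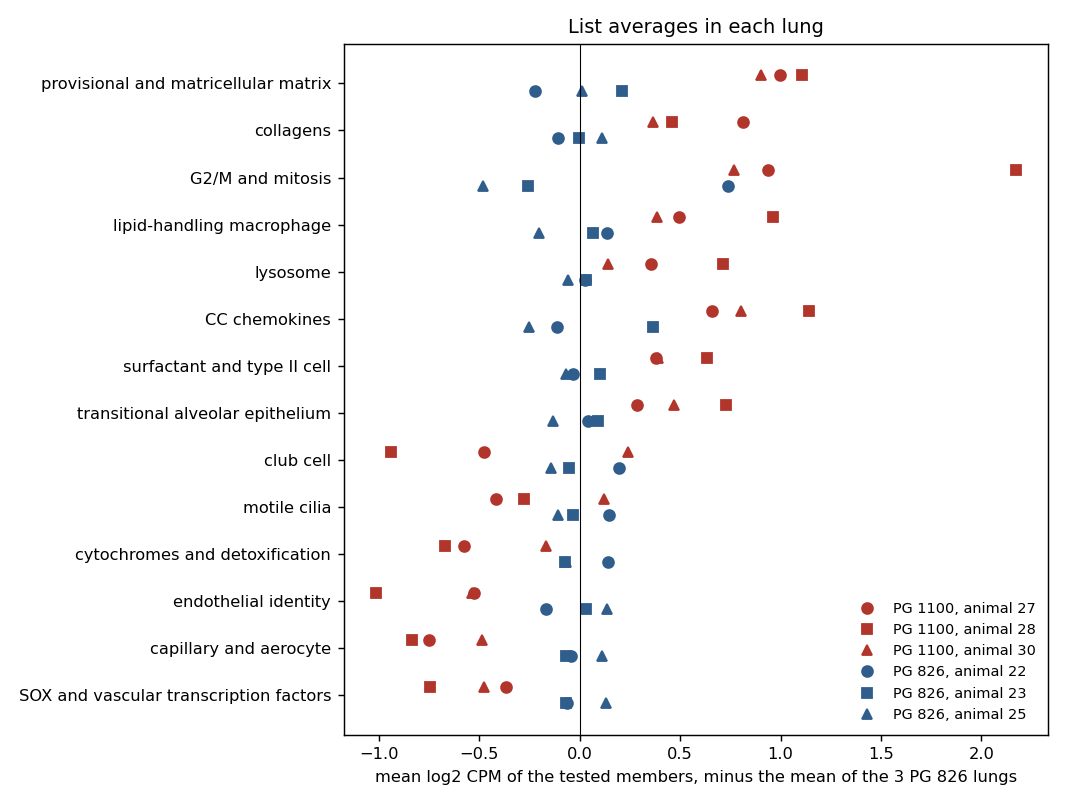
Mean log2 CPM of the tested members of 14 gene lists in each lung, minus the mean of the 3 PG 826 lungs. PG 1100 animals are in red, above the PG 826 animals in blue, and animal 28 (square) is the outermost of the PG 1100 lungs for the mitotic, lysosomal, chemokine and endothelial lists.

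Vascular endothelial genes were lower at the upper dose. Of genes of endothelial identity 20 of 31 were called lower and none higher (median -0.73), of capillary and aerocyte genes 13 of 25 lower and 2 higher (median -0.69), and of SOX and vascular transcription factors 9 of 25 lower and none higher (median -0.53). Over all genes, 2.71% were called lower and 2.85% higher. The endothelial list averaged -0.53, -1.02 and -0.54 log2 units in the PG 1100 animals and -0.17, 0.03 and 0.14 in the PG 826 animals, relative to the PG 826 mean, with no overlap. Medians relative to saline were -0.54 for PG 1100 over saline and 0.10 for PG 826 over saline for the same list. Without animal 28, 13, 8 and 6 members of the 3 lists were called lower, and 12, 5 and 6 were called lower under all 13 alternatives, against 0.733% of all genes. Macrophage and mitotic genes were higher in the same lungs, as given above, and their part in the endothelial values was not tested.

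Among receptors, Kdr, the main receptor of vascular endothelial growth factor (chr5:75932827-75978458, minus strand), had 138, 98.3 and 144 CPM in PG 1100 lungs, against 273, 253 and 269.7 CPM in PG 826 lungs. Kdr fell by 1.07 ± 0.16 on the log2 scale (edgeR adjusted p = 3.00e-05), called under all 13 alternatives, and did not overlap between the groups. Tek, the angiopoietin receptor, had 32.0, 36.0 and 36.5 CPM in PG 1100 lungs, against 59.6, 68.5 and 68.4 CPM in PG 826 lungs. Tek fell by 0.91 ± 0.14 on the log2 scale (edgeR adjusted p = 7.07e-05), called under all 13 alternatives, and did not overlap between the groups. Ramp2, the subunit that makes the adrenomedullin receptor (chr11:101246028-101259546, plus strand), had 119.8, 97.8 and 157 CPM in PG 1100 lungs, against 230.3, 289 and 343 CPM in PG 826 lungs. Ramp2 fell by 1.20 ± 0.16 on the log2 scale (edgeR adjusted p = 5.36e-06), called under all 13 alternatives, and did not overlap between the groups. Efnb2, the ephrin of arterial endothelium, had 25.7, 20.6 and 38.7 CPM in PG 1100 lungs, against 67.2, 77.0 and 82.1 CPM in PG 826 lungs. Efnb2 fell by 1.41 ± 0.19 on the log2 scale (edgeR adjusted p = 5.42e-06), called under all 13 alternatives, and did not overlap between the groups. All 4 had every PG 1100 lung below every PG 826 lung. Of capillary genes, Clec14a, an endothelial lectin, had 85.4, 88.9 and 98.4 CPM in PG 1100 lungs, against 166, 151 and 183 CPM in PG 826 lungs. Clec14a fell by 0.87 ± 0.13 on the log2 scale (edgeR adjusted p = 3.00e-05), called under all 13 alternatives, and did not overlap between the groups. Hpgd, the enzyme that inactivates prostaglandins, had 52.6, 39.3 and 108 CPM in PG 1100 lungs, against 191, 165 and 344 CPM in PG 826 lungs. Hpgd fell by 1.81 ± 0.42 on the log2 scale (edgeR adjusted p = 0.0211), called under 9 of 13 alternatives, and not without animal 25 or 27 or 28, and did not overlap between the groups. Kitl (-0.82 ± 0.16, called under all 13 alternatives), the ligand of the receptor Kit, Fibin (-1.32 ± 0.21, called under all 13 alternatives), a secreted protein, and Fendrr (-1.36 ± 0.23, called under all 13 alternatives), a long noncoding RNA beside Foxf1, were lower too. The 2 capillary members that were higher were Sparcl1 (0.58 ± 0.15, called under 8 of 13 alternatives, and not without animal 22 or 25 or 28) and Cd34 (0.45 ± 0.13, called under 6 of 13 alternatives, and not without animal 22 or 23 or 25 or 28 or 30), a matricellular protein and a sialomucin that fibroblasts also carry.

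Not every endothelial marker passed the test. Members that did not pass included Pecam1 (-0.33 ± 0.14, edgeR adjusted p = 0.165) and Icam2 (-0.10 ± 0.13, edgeR adjusted p = 0.785), adhesion molecules of endothelium, Emcn (0.36 ± 0.19, edgeR adjusted p = 0.307), a sialomucin, and Car4 (-0.07 ± 0.20, edgeR adjusted p = 0.924), a carbonic anhydrase of aerocytes. Pecam1 had 289, 257 and 372 CPM in PG 1100 lungs, against 335, 361 and 460.3 CPM in PG 826 lungs, with overlapping groups. In the lymphatic list Ccl21a was higher and Lyve1 (-1.25 ± 0.32, edgeR adjusted p = 0.0331, called under 7 of 13 alternatives, and not without animal 22 or 23 or 25 or 27 or 28), a hyaluronan receptor of lymphatic vessels and some macrophages, was lower among 10 tested.

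**Figure D5:**
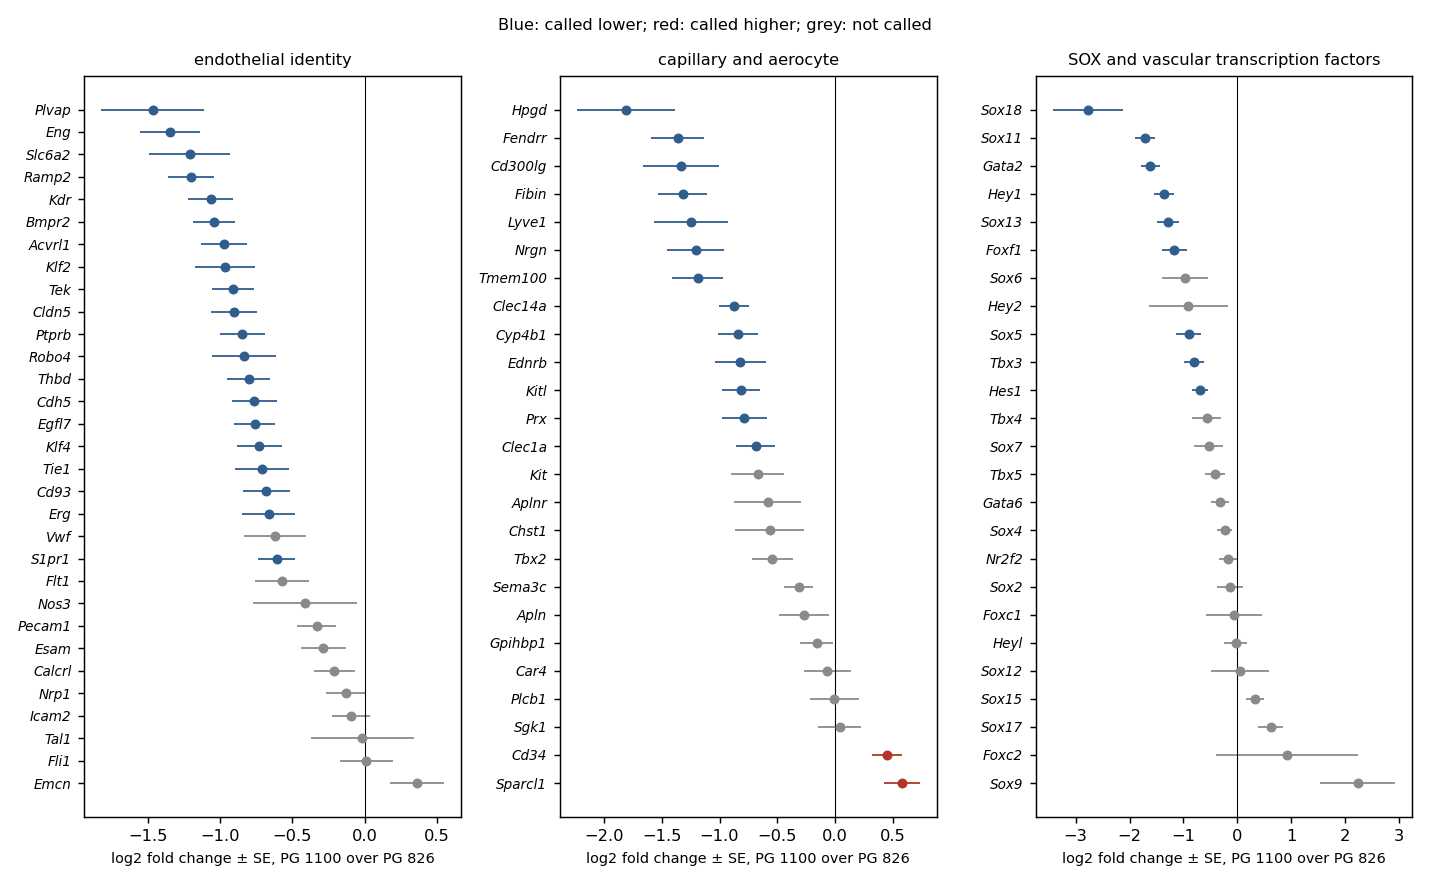
Log2 fold change of PG 1100 over PG 826 with its SE for each tested member of 3 lists (endothelial identity, capillary and aerocyte, SOX and vascular transcription factors), with called genes in blue (lower) or red (higher) and the others in grey. In the endothelial list 20 of 31 members were called lower, in the capillary list 13 of 25 and in the transcription factor list 9 of 25.

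Of the SOX and vascular transcription factors, Gata2 and Sox11 were among the calls with the smallest p. Gata2, a factor that sustains endothelial gene expression (chr6:88193891-88207032, plus strand), had 27.8, 18.9 and 28.2 CPM in PG 1100 lungs, against 83.3, 74.1 and 72.0 CPM in PG 826 lungs. Gata2 fell by 1.61 ± 0.17 on the log2 scale (edgeR adjusted p = 1.74e-07), called under all 13 alternatives, and did not overlap between the groups. The saline lungs were at 49.8 to 57.6 CPM for Gata2, below the PG 826 lungs and above the PG 1100 lungs. Sox11, a SOX factor of development (chr12:27334264-27342574, minus strand), had 14.8, 10.9 and 16.3 CPM in PG 1100 lungs, against 40.6, 43.2 and 53.6 CPM in PG 826 lungs. Sox11 fell by 1.71 ± 0.19 on the log2 scale (edgeR adjusted p = 4.21e-07), called under all 13 alternatives, and did not overlap between the groups. The saline lungs were at 56.6 to 93.2 CPM for Sox11, above both PG groups. Hey1, a target of Notch, had 20.6, 15.7 and 25.7 CPM in PG 1100 lungs, against 49.1, 47.0 and 63.7 CPM in PG 826 lungs. Hey1 fell by 1.36 ± 0.18 on the log2 scale (edgeR adjusted p = 8.81e-06), called under all 13 alternatives, and did not overlap between the groups. For Hey1 the saline lungs, at 32.9 to 34.3 CPM, also lay between the PG groups. Sox13 (-1.28 ± 0.21, edgeR adjusted p = 9.22e-05, called under all 13 alternatives) was lower. Sox18, a factor of vessel development, had 6.67, 2.44 and 3.79 CPM in PG 1100 lungs, against 16.4, 17.5 and 55.2 CPM in PG 826 lungs, and PG 826 animal 25 stood apart from its group. Sox18 fell by 2.77 ± 0.65 on the log2 scale (edgeR adjusted p = 0.0215), called under 7 of 13 alternatives, and not without animal 25 or 28 or 30, and did not overlap between the groups. Epas1, the hypoxia-inducible factor 2α of endothelium, had 502, 285 and 477 CPM in PG 1100 lungs, against 806, 928 and 1015 CPM in PG 826 lungs. Epas1 fell by 1.12 ± 0.15 on the log2 scale (edgeR adjusted p = 1.07e-05), called under all 13 alternatives, and did not overlap between the groups. Ehd4, Tspan7 and Myzap, which complete the genes with the smallest p, were lower. Ehd4, a protein of endocytic recycling, had 266, 225 and 376 CPM in PG 1100 lungs, against 629.9, 679 and 721 CPM in PG 826 lungs. Ehd4 fell by 1.23 ± 0.16 on the log2 scale (edgeR adjusted p = 3.66e-06), called under all 13 alternatives, and did not overlap between the groups. Tspan7, a tetraspanin, had 129, 90.5 and 125 CPM in PG 1100 lungs, against 284, 265 and 284 CPM in PG 826 lungs. Tspan7 fell by 1.27 ± 0.16 on the log2 scale (edgeR adjusted p = 5.36e-06), called under all 13 alternatives, and did not overlap between the groups. Myzap, a protein of cell junctions, had 50.2, 47.0 and 65.8 CPM in PG 1100 lungs, against 113, 122 and 164 CPM in PG 826 lungs. Myzap fell by 1.29 ± 0.15 on the log2 scale (edgeR adjusted p = 9.20e-07), called under all 13 alternatives, and did not overlap between the groups.

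Genes that metabolise foreign compounds were lower in 15 of 41 tested members (36.6%, against 2.71% of all genes), with none higher (median -0.43). Fmo1, a flavin monooxygenase, had 37.5, 55.7 and 56.2 CPM in PG 1100 lungs, against 110.4, 96.4 and 106 CPM in PG 826 lungs. Fmo1 fell by 1.07 ± 0.15 on the log2 scale (edgeR adjusted p = 2.33e-05), called under all 13 alternatives, and did not overlap between the groups. The saline lungs were at 139.5 to 149 CPM for Fmo1. Gstm1, a glutathione transferase, had 194, 169 and 219.8 CPM in PG 1100 lungs, against 329, 339 and 356 CPM in PG 826 lungs. Gstm1 fell by 0.81 ± 0.14 on the log2 scale (edgeR adjusted p = 3.32e-04), called under all 13 alternatives, and did not overlap between the groups. Fmo2 (-0.76 ± 0.15, called under all 13 alternatives), the main flavin monooxygenase of lung, and Gsta3 were lower too. The count was 8 without animal 28 and 9 with only the 6 libraries. Of the alcohol and aldehyde oxidation genes, the family that handles PG itself, 2 of 29 were higher (6.9%, against 2.85% of all genes) and 3 lower (10.3%, against 2.71%). The higher ones were Ldha, lactate dehydrogenase A, with 153, 238 and 172 CPM in PG 1100 lungs, against 94.1, 95.9 and 89.4 CPM in PG 826 lungs, and Akr1b8 (1.58 ± 0.29, edgeR adjusted p = 6.16e-04, called under all 13 alternatives), an aldo-keto reductase. Ldha rose by 1.01 ± 0.15 on the log2 scale (edgeR adjusted p = 3.00e-05), called under all 13 alternatives, and did not overlap between the groups. The lower ones were Aldh2 (-0.62 ± 0.14, edgeR adjusted p = 0.00355, called under 10 of 13 alternatives, and not without animal 28), the mitochondrial aldehyde dehydrogenase, Aldh3a1 (-0.90 ± 0.26, edgeR adjusted p = 0.0367, called under 7 of 13 alternatives, and not without animal 22 or 23 or 25 or 28), and Aldh1a1 (-0.58 ± 0.17, called under 6 of 13 alternatives, and not without animal 22 or 23 or 25 or 27 or 28). Adh1 (0.29 ± 0.16, edgeR adjusted p = 0.350), the class I alcohol dehydrogenase, did not pass.

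NRF2 targets, the antioxidant genes, were higher in 6 of 21 (28.6%, against 2.85% of all genes) and none was lower. Hmox1, haem oxygenase 1, had 8.31, 32.3 and 56.9 CPM in PG 1100 lungs, against 6.46, 12.1 and 6.04 CPM in PG 826 lungs, and animal 27 overlapped the PG 826 range. Hmox1 rose by 1.97 ± 0.45 on the log2 scale (edgeR adjusted p = 0.00923), called under 7 of 13 alternatives, and not without animal 22 or 25 or 30, and overlapped between the groups. Gclc (0.63 ± 0.16, called under 7 of 13 alternatives, and not without animal 22 or 25 or 28 or 30), the first enzyme of glutathione synthesis, Ftl1 (0.56 ± 0.14, called under 9 of 13 alternatives, and not without animal 25 or 28), a ferritin chain, and Pgd (0.59 ± 0.16, called under 7 of 13 alternatives, and not without animal 22 or 25 or 28 or 30), of the pentose phosphate pathway, were higher. The NRF2 count was 1 without animal 28, 0 without animal 25, 2 without animal 22, 2 without animal 30 and 0 with only the 6 libraries. In the osmotic stress list none of 22 was higher and 3 were lower, Scnn1g, Aqp1 (-0.5 ± 0.13, edgeR adjusted p = 0.0173, called under 7 of 13 alternatives, and not without animal 22 or 25 or 28 or 30), a water channel, and Nfat5 (-0.60 ± 0.18, edgeR adjusted p = 0.0374, called under 7 of 13 alternatives, and not without animal 23 or 25 or 28 or 30), the factor that answers high salt. In the list of integrated and endoplasmic reticulum stress 3 of 27 were higher, Mthfd2 (1.31 ± 0.30, called under 11 of 13 alternatives, and not without animal 28), Pdia4 (0.75 ± 0.18, called under 7 of 13 alternatives, and not without animal 22 or 25 or 28 or 30) and Hspa5 (0.59 ± 0.17, called under 6 of 13 alternatives, and not without animal 22 or 25 or 28 or 30), and 1 lower, Ppp1r15a (-0.81 ± 0.23, called under 6 of 13 alternatives, and not without animal 23 or 25 or 28 or 30). None of 22 p53 targets was called by edgeR, and Cdkn1a had 192, 130.3 and 159 CPM in PG 1100 lungs, against 152, 156 and 153 CPM in PG 826 lungs (edgeR adjusted p = 0.902).

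Hypoxia and glycolysis genes were higher in 6 and lower in 3 of 34 (17.65% and 8.82%, against 2.85% and 2.71% of all genes). Ankrd37, a target of hypoxia-inducible factor (chr8:45996902-46005707, minus strand), had 62.4, 37.1 and 13.0 CPM in PG 1100 lungs, against 4.27, 2.52 and 2.4 CPM in PG 826 lungs. Animal 27 was highest and animal 30 lowest of the PG 1100 lungs, each above the PG 826 lungs. Ankrd37 rose by 3.62 ± 0.61 on the log2 scale (edgeR adjusted p = 0.00102), called under all 13 alternatives, and did not overlap between the groups. Gapdh (1.07 ± 0.21, edgeR adjusted p = 0.00132, called under 12 of 13 alternatives, and not without animal 28), a glycolytic enzyme, was also higher, and Epas1 and Vegfa, given above, were lower. The 6 higher were 2 without animal 28 and 3 without animal 25. In the arginine and polyamine list 5 of 24 were higher and none lower, Arg1, Oat (0.48 ± 0.13, called under 7 of 13 alternatives, and not without animal 22 or 25 or 28 or 30), Azin1 (0.77 ± 0.19, called under 9 of 13 alternatives, and not without animal 25 or 28), which protects ornithine decarboxylase, and Amd1 and Amd2. Amd1, which makes the aminopropyl donor of polyamines, had 215, 199 and 82.7 CPM in PG 1100 lungs, against 53.4, 54.3 and 54.5 CPM in PG 826 lungs. Amd1 rose by 1.62 ± 0.22 on the log2 scale (edgeR adjusted p = 2.42e-05), called under all 13 alternatives, and did not overlap between the groups. Amd2 is a near-identical copy (1.69 ± 0.23, called under all 13 alternatives), so the 2 cannot be counted apart, and the list count was 3 without animal 28 or animal 25. The 5 higher members were 20.8% of the list.

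The metallothioneins Mt1 and Mt2, which bind zinc and copper and answer glucocorticoids and metals, were higher. Mt2 had 140.1, 199 and 208 CPM in PG 1100 lungs, against 75.8, 83.2 and 47.3 CPM in PG 826 lungs. Mt2 rose by 1.41 ± 0.23 on the log2 scale (edgeR adjusted p = 4.05e-04), called under all 13 alternatives, and did not overlap between the groups. Mt1 (0.95 ± 0.15, edgeR adjusted p = 1.03e-04, called under all 13 alternatives) went the same way. In the glucocorticoid list of 18 genes 2 others were lower (11.1%, against 2.71% of all genes), Dusp1 (-1.0 ± 0.18, edgeR adjusted p = 5.24e-04, called under all 13 alternatives) and Klf9 (-0.60 ± 0.14, edgeR adjusted p = 0.00814, called under 9 of 13 alternatives, and not without animal 25 or 28). Klf9 had 366, 247 and 336 CPM in PG 1100 lungs, against 433, 474 and 527 CPM in PG 826 lungs. Its saline levels, 256 to 285 CPM, lay within the PG 1100 range. Fkbp5, a glucocorticoid-induced co-chaperone, had 28.0, 17.4 and 27.5 CPM in PG 1100 lungs, against 26.4, 18.4 and 27.2 CPM in PG 826 lungs and did not pass (edgeR adjusted p = 0.985), while the saline lungs were at 3.16 to 9.25 CPM. Of the immediate early genes 4 of 25 were lower and none higher, Dusp1, Jun (-0.88 ± 0.18, called under all 13 alternatives), Klf4 (-0.73 ± 0.16, called under 12 of 13 alternatives, and not without animal 28) and Ier2 (-0.83 ± 0.19, called under 12 of 13 alternatives, and not without animal 28). That count, 16.0% of the list, was 2 without animal 28. Dusp1, a phosphatase that turns off MAP kinases, had 40.9, 31.2 and 42.4 CPM in PG 1100 lungs, against 64.3, 76.7 and 88.3 CPM in PG 826 lungs. In the clock list 1 of 19, Bhlhe41, was higher (5.26%, against 2.85% of all genes).

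Of cholesterol genes 2 of 22 (9.09%, against 2.85% of all genes) were higher, Hmgcs1 (0.53 ± 0.14, called under 7 of 13 alternatives, and not without animal 22 or 25 or 28 or 30) and Acat2 (0.48 ± 0.14, called under 5 of 13 alternatives, and not without animal 22 or 23 or 25 or 28 or 30), and of fatty acid genes 3 of 30 (10.0%), Elovl1 (0.92 ± 0.15, called under all 13 alternatives), which elongates saturated fatty acids, Acsl4 (0.61 ± 0.14, called under 9 of 13 alternatives, and not without animal 25 or 28) and Scd1 (0.58 ± 0.15, called under 9 of 13 alternatives, and not without animal 25 or 28). The respiratory chain had 2 of 26 (7.69%) higher, Cox5b (0.5 ± 0.14, called under 7 of 13 alternatives, and not without animal 22 or 25 or 28 or 30) and Cycs (0.48 ± 0.15, called under 4 of 13 alternatives, and not without animal 22 or 23 or 25 or 28 or 30), and the proteasome 1 of 24, Psmb1 (0.46 ± 0.13, called under 6 of 13 alternatives, and not without animal 22 or 23 or 25 or 28 or 30). The list of liver-type transport genes had Cp (0.69 ± 0.15, edgeR adjusted p = 0.00406, called under 10 of 13 alternatives, and not without animal 25 or 28), ceruloplasmin, higher and Asgr1 (-1.25 ± 0.35, edgeR adjusted p = 0.0263, called under 6 of 13 alternatives, and not without animal 22 or 25 or 27 or 28), a lectin receptor, lower, with Fabp1 among the largest falls. In the semaphorin and axon guidance list 3 of 26 were lower, Efnb2, Sema6a (-0.94 ± 0.19, called under all 13 alternatives) and Plxna1 (-0.75 ± 0.20, called under 9 of 13 alternatives, and not without animal 23 or 25 or 28). In the lists of ribosomal proteins, heart muscle, fat, red cell and mesothelial genes edgeR called none in either direction, and the red cell list had a median of -0.51.

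The remaining genes named by the size of their change follow. Among rises, Zranb3, a helicase of stalled replication forks, had 6.67, 15.6 and 6.23 CPM in PG 1100 lungs, against 2.19, 2.61 and 0.208 CPM in PG 826 lungs. Zranb3 rose by 2.48 ± 0.52 on the log2 scale (edgeR adjusted p = 0.00250), called under 12 of 13 alternatives, and not without animal 28, and did not overlap between the groups. Cenpm, a centromere protein, had 3.86, 17.5 and 5.23 CPM in PG 1100 lungs, against 2.63, 1.04 and 1.77 CPM in PG 826 lungs. Cenpm rose by 2.29 ± 0.70 on the log2 scale (edgeR adjusted p = 0.0470), called under 8 of 13 alternatives, and not without animal 22 or 23 or 25 or 28, and did not overlap between the groups. Wfdc17, a WAP domain protein that macrophages secrete, had 45.2, 136 and 52.1 CPM in PG 1100 lungs, against 19.2, 18.7 and 12.3 CPM in PG 826 lungs. Wfdc17 rose by 2.22 ± 0.49 on the log2 scale (edgeR adjusted p = 0.0141), called under 9 of 13 alternatives, and not without animal 25 or 28, and did not overlap between the groups. Ntrk2, the receptor of brain-derived neurotrophic factor, had 80.2, 36.7 and 11.6 CPM in PG 1100 lungs, against 10.7, 8.0 and 8.12 CPM in PG 826 lungs, with animal 27 far above animal 30. Ntrk2 rose by 2.26 ± 0.59 on the log2 scale (edgeR adjusted p = 0.0329), called under 5 of 13 alternatives, and not without animal 22 or 23 or 25 or 27 or 28, and did not overlap between the groups. Among falls, Ankrd63, an ankyrin repeat protein, had 0.966, 0 and 0.334 CPM in PG 1100 lungs, against 4.82, 6.52 and 5.62 CPM in PG 826 lungs, so animal 28 had no count. Ankrd63 fell by 3.62 ± 0.53 on the log2 scale (edgeR adjusted p = 3.00e-05), called under all 13 alternatives, and did not overlap between the groups. Tmeff2, a membrane protein with follistatin-like domains, had 0.483, 1.33 and 2.0 CPM in PG 1100 lungs, against 7.01, 7.39 and 6.87 CPM in PG 826 lungs. Tmeff2 fell by 2.49 ± 0.48 on the log2 scale (edgeR adjusted p = 9.12e-04), called under all 13 alternatives, and did not overlap between the groups. Npr3, the clearance receptor of natriuretic peptides, had 21.4, 16.1 and 44.0 CPM in PG 1100 lungs, against 84.6, 89.6 and 111 CPM in PG 826 lungs. Npr3 fell by 1.81 ± 0.38 on the log2 scale (edgeR adjusted p = 0.00991), called under 11 of 13 alternatives, and not without animal 25 or 28, and did not overlap between the groups. Fabp1, a fatty acid binding protein, had 8.5, 0.886 and 4.9 CPM in PG 1100 lungs, against 20.4, 19.7 and 17.7 CPM in PG 826 lungs. Fabp1 fell by 2.0 ± 0.44 on the log2 scale (edgeR adjusted p = 0.00798), called under 11 of 13 alternatives, and did not overlap between the groups. Ackr4, a receptor that scavenges CCL21 and related chemokines, had 1.74, 1.99 and 3.01 CPM in PG 1100 lungs, against 11.6, 5.13 and 5.42 CPM in PG 826 lungs. Ackr4 fell by 1.71 ± 0.44 on the log2 scale (edgeR adjusted p = 0.0144), called under 10 of 13 alternatives, and not without animal 22 or 28, and did not overlap between the groups.

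The other falls named by size were those of Cacna2d4 (-2.21 ± 0.50, called under 12 of 13 alternatives, and not without animal 28), a calcium channel subunit, Magee1 (-1.72 ± 0.44, called under 9 of 13 alternatives, and not without animal 25 or 28 or 30), a member of the MAGE family, Aard (-1.58 ± 0.28, called under all 13 alternatives), Lrtm2 (-1.56 ± 0.35, called under 11 of 13 alternatives, and not without animal 23 or 28), a leucine-rich repeat membrane protein, and Kank4 (-1.56 ± 0.35, called under all 13 alternatives), an ankyrin repeat protein that regulates actin. Each had no overlap between the groups, which was a condition for naming by size. The calls of Cacna2d4, Magee1 and Lrtm2 ended without animal 28.

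The values of each dose against saline stand beside each other as follows, from libraries that the comparisons share. Against saline, edgeR called 1077 genes for PG 1100 (7.31% of those tested), 602 higher (4.09%) and 475 lower (3.23%), and 20 for PG 826 (0.136%), 14 higher (0.0951%) and 6 lower (0.0407%). Without animal 28 the PG 1100 count was 547, and the PG 826 count was 120 without saline animal 6, 5 without saline animal 8, 10 without saline animal 10, 12 without animal 23 and 11 without animal 25. The median log2 fold change of the provisional matrix list was 0.89 for PG 1100 over saline and -0.08 for PG 826 over saline. It was 0.97 for PG 1100 over saline and 0.38 for PG 826 over saline for collagens, 1.38 for PG 1100 over saline and 0.02 for PG 826 over saline for mitotic genes, and 0.47 for PG 1100 over saline and 0.03 for PG 826 over saline for lysosomal genes. For club cell genes it was -0.77 for PG 1100 over saline and -0.51 for PG 826 over saline, and for motile cilia genes -0.66 for PG 1100 over saline and -0.62 for PG 826 over saline. The club cell list averages overlapped saline at both doses, and saline animal 10 was the highest of the 9 lungs. For cytochromes and detoxification it was -0.69 for PG 1100 over saline and -0.23 for PG 826 over saline.

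VEA 12.5 against ethanol shares no library with the PG comparison. There edgeR called 1430 genes (9.71% of those tested), 807 higher (5.48%) and 623 lower (4.23%), and 873 without VEA animal 70. Of the 419 genes higher in PG 1100 than in PG 826, 199 were also higher in VEA 12.5 lungs, which is 47.5% of the PG genes and 24.7% of the VEA genes, 1 was lower and 219 were not called. Of the 399 lower genes, 139 were lower in VEA 12.5 lungs too, which is 34.8% of the PG genes and 22.3% of the VEA genes, 1 was higher and 259 were not called. In the VEA comparison 27 of 48 mitotic genes were higher and 1 lower, 19 of 34 lysosomal genes were higher and none lower by edgeR, 12 of 31 endothelial genes were lower and none higher, and 4 of 25 SOX and vascular transcription factors were lower and 1 higher.

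The step between PG doses was also tested against the step between VEA doses, PG 1100 minus PG 826 against VEA 12.5 minus VEA 3.12, since a call in one agent and not in another shows no difference. It differed in 39 genes (0.265% of those tested), 18 with a higher PG step (0.122%) and 21 with a lower one (0.143%). The steps span unlike ranges of dose, 826 to 1100 for PG and 3.12 to 12.5 for VEA. VEA 3.12 was not compared with ethanol here. Igf1 averaged 147 ± 16.0 CPM in PG 1100 lungs and 33.6 ± 4.93 CPM in PG 826 lungs (SD, n = 3 each), and 98.4 ± 3.15 CPM in VEA 12.5 lungs and 73.5 ± 8.66 CPM in VEA 3.12 lungs (SD, n = 3 each). Of the 38 genes named above by fold or by smallest p, 11 were among the 39, with their differences given in the closing part. The 38 were picked by their PG step, which the test also holds, so these 11 calls are not independent of the picking. The count of 39 was 4 without animal 28, 4 without animal 25, 25 without animal 23, 306 without animal 27 and 98 without animal 30. It was 7 to 15 without VEA animal 56, 59, 66, 68 or 70.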

How the data were processed

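Lungs of 21 mice were measured, 1 library per animal and 3 animals in each of 7 groups. The authors deposited 1 file per library with raw counts per gene symbol, checked to be whole numbers. Per the submitters' processing notes, Bowtie2, bedtools and the mouse assembly mm10 were used, with no versions, and the annotation and the strand setting are not given in the sources used here. Rows of the same symbol were summed (35 of 23238 symbols), and no row without a gene name was found.

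Groups were taken from the labels. Counts were fitted with edgeR 4.0.16 in R 4.3.3, using filterByExpr by group, TMM scaling and a robust quasi-likelihood model with 1 mean per group over all 21 libraries, which left 14 residual degrees of freedom and a biological coefficient of variation of 23.8%. P-values were adjusted by Benjamini-Hochberg over 14727 genes. CPM are TMM-scaled, marker sums are unscaled CPM, and list averages use log2 CPM with a prior count of 2. An SE is the log2 fold change over the root of its F statistic. Library totals were 8778028 to 11783151. Pooled over genes, PG animals of 1 group differed by more than counting error alone (chi-square divided by its degrees of freedom, 11.2 to 27.6). Abundant genes can dominate such a pooled value, so it does not show this for genes at a few CPM. The script was tested on simulated data.

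Genes named are the 15 largest rises, 15 largest falls and 10 smallest p among called genes that reached a mean of 5 CPM in either group and whose groups did not overlap, and up to 4 members per list by p. Unnamed gene models, small RNAs and receptor segments were left out of the naming. Aldh1a1, Oat, Sftpc, Sparcl1 and Cd34, and members given as not passing, were named beside them, and a few list members are not reported here. The 58 gene lists and the comparison itself were chosen with earlier results of these data known. Alternatives were RLE factors, DESeq2 1.42.0, limma-voom (limma 3.58.1), no filter, fewer libraries in the fit, no Rn45s or haemoglobin counts, and each animal left out. A fold setting kept calls with a log2 fold change of at least 1 and is not among the 13. Gene positions are from GENCODE M21 (GRCm38), and promoters are from RefSeq (GRCm38.p6). Ccl21a, Amd1, Amd2 and haemoglobin genes have near-identical copies.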

Additional observations from a re-analysis of the deposited data

Results flagged for a closer look

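Among the genes named by fold or smallest p, 11 had a PG dose step that differed from the VEA dose step by a test of the difference itself, PG 1100 minus PG 826 against VEA 12.5 minus VEA 3.12 on the log2 scale. Igf1, the growth factor, had a difference of 1.70 ± 0.21 (edgeR adjusted p = 1.25e-05, called under 18 of 18 alternatives, range 3.70e-12 to 2.09e-04), with a VEA step of 0.42. Lgals1, the galectin, had 1.68 ± 0.23 (edgeR adjusted p = 7.70e-05, called under 18 of 18 alternatives, range 3.16e-12 to 0.00109), with a VEA step of -0.30. Gata2 had -1.45 ± 0.24 (edgeR adjusted p = 0.00175, called under 18 of 18 alternatives, range 1.88e-06 to 0.0202), with a VEA step of -0.16, and Sox11 had -1.60 ± 0.26 (edgeR adjusted p = 0.00175, called under 18 of 18 alternatives, range 1.41e-07 to 0.0168), with a VEA step of -0.12. These 4 were called under every alternative run. The lower doses of the agents had unlike levels for Igf1, Lgals1 and Gata2 and like levels for Sox11. Igf1 averaged 33.6 CPM in PG 826 and 73.5 CPM in VEA 3.12 lungs. Lgals1 averaged 418 CPM in PG 1100 and 160.2 CPM in PG 826 lungs, and 249 CPM in VEA 12.5 and 306 CPM in VEA 3.12 lungs. Gata2 averaged 25.0 CPM in PG 1100 and 76.4 CPM in PG 826 lungs, and 40.6 CPM in VEA 12.5 and 45.5 CPM in VEA 3.12 lungs. Sox11 averaged 14.0 CPM in PG 1100 and 45.8 CPM in PG 826 lungs, and 40.8 CPM in VEA 12.5 and 44.3 CPM in VEA 3.12 lungs. The test compares steps only, and it does not show that a level or a change is particular to PG. All 11 genes were picked by their PG step, which is part of the tested difference and comes from the same libraries. Their differences therefore repeat in part the values they were picked by.

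The other 7 lost the call under some alternatives. Ankrd63 had -3.54 ± 0.68 (edgeR adjusted p = 0.0164, called under 13 of 17 alternatives, range 1.13e-04 to 0.0992), with a VEA step of -0.08. Ehd4 had -1.14 ± 0.22 (edgeR adjusted p = 0.0164, called under 15 of 18 alternatives, range 1.94e-05 to 0.0992), with a VEA step of -0.09. Tspan7 had -1.20 ± 0.23 (edgeR adjusted p = 0.0164, called under 15 of 18 alternatives, range 5.66e-06 to 0.0992), with a VEA step of -0.08. Ramp2 had -1.10 ± 0.22 (edgeR adjusted p = 0.0177, called under 14 of 18 alternatives, range 5.45e-05 to 0.121), with a VEA step of -0.10. Efnb2 had -1.21 ± 0.26 (edgeR adjusted p = 0.0295, called under 9 of 18 alternatives, range 1.37e-04 to 0.144), with a VEA step of -0.20. Myzap had -0.98 ± 0.21 (edgeR adjusted p = 0.0328, called under 11 of 18 alternatives, range 0.00131 to 0.188), with a VEA step of -0.31. Ccl21a, which has near-identical copies, had 0.98 ± 0.22 (edgeR adjusted p = 0.0370, called under 9 of 18 alternatives, range 0.00219 to 0.225), with a VEA step of 0.35. For each of these the highest adjusted p came without animal 28 or without animal 25. The 11 were tested within the full set of genes, and the 27 other named genes were not called.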

How the results depend on the processing

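Counts of genes called were 818 between the PG doses, 1077 for PG 1100 and 20 for PG 826 against saline, 1430 for VEA 12.5 against ethanol and 39 for the difference between dose steps. With only the groups compared in the fit they were 425 between the PG doses and 444 for PG 1100 against saline, and with the 9 saline and PG libraries the first was 371. With a log2 fold change of at least 1 they were 268 (62.3% higher, against 51.2% of the 818), 477, 12 and 638 for the first 4 comparisons. DESeq2 gave 73 for PG 826 against saline and 136 for the difference, and no low-count filter 162 and 274. Leaving out each animal gave 259 to 1458 between the PG doses, 547 to 1207 for PG 1100 and 5 to 120 for PG 826 against saline, 873 to 1090 for VEA and 4 to 306 for the difference. Fewer libraries leave fewer degrees of freedom, and beyond that the cause was not tested. No called gene given here with its fold change between the PG doses changed sign in any setting. For genes given as not passing, the sign was not compared across settings. No paired analysis was possible because animal numbers are not shared between groups. Genes at a few CPM are limited by depth.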

Other observations

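Called genes outside the gene lists were looked through after their values were seen, and those below are a description. Macrophage surface proteins among the higher genes were Cd84 (1.26 ± 0.19, edgeR adjusted p = 3.02e-05, called under all 13 alternatives), Clec4n (1.26 ± 0.20, edgeR adjusted p = 1.39e-04, called under all 13 alternatives), Fcgr3 (0.78 ± 0.16, edgeR adjusted p = 0.00117, called under all 13 alternatives) and Tyrobp (0.95 ± 0.19, edgeR adjusted p = 0.00227, called under all 13 alternatives), the adaptor of Trem2. Clec4n had 114, 214 and 149.6 CPM in PG 1100 lungs, against 67.9, 79.9 and 51.3 CPM in PG 826 lungs. Secreted products of fibroblasts and vessel walls were Mgp (1.05 ± 0.15, edgeR adjusted p = 2.49e-05, called under all 13 alternatives), an inhibitor of calcification, Ccdc80 (0.89 ± 0.16, edgeR adjusted p = 3.14e-04, called under all 13 alternatives), Fstl1 (0.82 ± 0.15, edgeR adjusted p = 6.91e-04, called under all 13 alternatives) and Sfrp1 (0.92 ± 0.18, edgeR adjusted p = 0.00106, called under all 13 alternatives), a Wnt antagonist. Mgp had 4465, 6785 and 5648 CPM in PG 1100 lungs, against 2951, 2707 and 2515 CPM in PG 826 lungs, and its groups did not overlap. Tubulins Tubb2b (1.47 ± 0.20, edgeR adjusted p = 1.04e-05, called under all 13 alternatives), Tubb6 (1.33 ± 0.27, edgeR adjusted p = 0.00132, called under all 13 alternatives) and Tubb2a (0.81 ± 0.18, edgeR adjusted p = 0.00429, called under all 13 alternatives) were higher as well, and so was Gja1 (1.16 ± 0.18, edgeR adjusted p = 5.48e-05, called under all 13 alternatives), the gap junction protein connexin 43, with 65.4, 129 and 102 CPM in PG 1100 lungs, against 46.3, 45.1 and 40.3 CPM in PG 826 lungs.

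On the lower side were Dll4 (-1.31 ± 0.27, edgeR adjusted p = 0.00196, called under all 13 alternatives), the Notch ligand of endothelial tips, and Notch1 (-0.66 ± 0.18, edgeR adjusted p = 0.0169, called under 8 of 13 alternatives, and not without animal 23 or 25 or 28), beside the Notch target Hey1. Dll4 had 11.5, 7.2 and 16.1 CPM in PG 1100 lungs, against 24.1, 36.7 and 25.3 CPM in PG 826 lungs, and its groups did not overlap. Cx3cl1 (-1.32 ± 0.25, edgeR adjusted p = 9.21e-04, called under all 13 alternatives), the ligand fractalkine, and Bdnf (-1.02 ± 0.19, edgeR adjusted p = 9.21e-04, called under all 13 alternatives), the ligand of the receptor that Ntrk2 encodes, were lower too. Bdnf had 45.8, 30.7 and 49.1 CPM in PG 1100 lungs, against 65.3, 96.6 and 92.9 CPM in PG 826 lungs. The homeobox genes Hoxb5 (-1.33 ± 0.23, edgeR adjusted p = 3.32e-04, called under all 13 alternatives) and Hoxa5 (-0.63 ± 0.14, edgeR adjusted p = 0.00403, called under 11 of 13 alternatives, and not without animal 28), which act in lung development, and the chromatin genes Smarca2 (-0.67 ± 0.12, edgeR adjusted p = 5.41e-04, called under all 13 alternatives) and Cbx7 (-0.99 ± 0.18, edgeR adjusted p = 4.69e-04, called under all 13 alternatives) were lower.

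Some genes that differed between PG 826 and saline did not pass between the PG doses. Chil3, a chitinase-like protein of macrophages, had 1423, 1163 and 837 CPM in PG 1100 lungs, against 1063, 957 and 874 CPM in PG 826 lungs (edgeR adjusted p = 0.465), and the saline lungs were at 376 to 590.1 CPM. Retnla, another product of alternatively activated macrophages, had 642, 1349 and 717 CPM in PG 1100 lungs, against 588, 394 and 217 CPM in PG 826 lungs (edgeR adjusted p = 0.0615), and the saline lungs were at 66.1 to 122 CPM.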
